A study of Drosophila melanogaster with 4 samples.

Results

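Short transposon fragments are annotated pieces of transposable elements that lie scattered through the Drosophila melanogaster genome and are, here, under 1000 bases long. They were chosen by 2 properties of the annotation, a feature identifier that is not a gene's and a length under 1000 bases, and by no measured value. The choice by identifier and length found 4369 of the 23882 features that the authors counted. Of these, 481 were not transposons: they were short noncoding RNA records of 18 to 29 bases, and all 481 overlapped a miRNA gene. The remaining 3888 were transposon insertions, out of 5571 insertions of any length, and these are the short fragments described here; the 481 records are given separately at the end. At the length limit, the longest fragments inside had 994, 994 and 996 bases and the shortest insertions outside had 1001, 1001 and 1002 bases.

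The fragments were measured by polyA RNA sequencing of embryonic myoblasts, the cells that fuse into larval body wall muscle. GFP-positive cells were sorted from stage 11 embryos of 2 lines, WT and salm[340]; the second carries an allele of the gene salm (spalt major), which codes for a zinc finger transcription factor. In both lines egg laying lasted 3 h at 25 C, ageing took another 7 h, and homozygous embryos were picked by hand under a fluorescence microscope. Each line has 2 libraries, which the submitters call technical replicates, so the p-values reflect no more than the spread of these libraries. What drives the GFP, and what the allele changes in salm, are not given in the sources used here. Fewer cells of a type and less RNA per cell cannot be told apart in such bulk libraries.

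Most transposon copies in a fly genome are remnants that no longer move. DNA transposons move as DNA, while retrotransposons are copied through RNA, and those with long terminal repeats (LTRs) can leave a single repeat behind when the repeats at both ends recombine. Piwi proteins with their piRNAs silence transposons, chiefly in the germ line, and Argonaute 2 with siRNAs does so in somatic cells. A remnant inside a gene is transcribed with that gene, so its RNA need not come from a transposon promoter.

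The libraries differed in composition. Nuclear genes took 16444679 and 14519537 counts in WT replicates 1 and 2 but 5931336 and 5772355 in salm[340] replicates 1 and 2, while mitochondrial genes took 24.8% to 29.3% of gene counts in WT and 60.9% to 63.2% in salm[340]. Levels below are therefore counts per 1000000 nuclear gene counts after trimmed mean (TMM) scaling, written CPM, and are not divided by length. Of the 12 myoblast markers tested, kirre, Mhc, sns and Act57B were higher in salm[340] and blow and sing lower by the test described below, and their summed level was 5702 and 5742 CPM in WT against 7179 and 7445 CPM in salm[340]. Mef2, the muscle transcription factor, stood at 494.5 ± 10.4 CPM in WT and 519.4 ± 35.2 CPM in salm[340] (SD, n = 2 each). The salm RNA was higher in the libraries labelled salm[340], at 179.7 ± 5.16 CPM against 48.4 ± 1.20 CPM (SD, n = 2 each), which does not check the labels because the lesion of the allele is unknown here.

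The 3888 fragments were short and dominated by 1 family. Their median length was 184.5 bases, with a range of 6 to 996 bases. INE-1, a small nonautonomous DNA element that is very common in Drosophila, made up 2188 of them, or 56.3%. The next families were the DNA transposon 1360 with 192 fragments, Cr1a with 83, the non-LTR retrotransposon jockey with 59, gypsy8 with 45, invader1 with 40 and the foldback element FB with 39. In all, 122 families were named and 2 fragments had no family name.

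Their places in the genome were uneven. Arm 2R held 976 fragments (25.1%), 3L 724, 2L 664, X 624 and 3R 432, and the small chromosome 4 held 468 (12.04%). By position, 1941 fragments (49.9%) lay between genes, 1686 (43.4%) lay in an intron and 261 (6.71%) overlapped an exon by at least 10 bases. Of the 261, 138 touched a 3′ UTR, 31 a 5′ UTR and 12 a coding part. A further insertion overlapped 325 of the fragments.

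Few of them gave RNA. No library held a count for 2141 fragments (55.1%), another 1510 had counts too low to test, and 237 (6.10%) were tested. Exonic fragments were 89 of the 237, intronic ones 59 and intergenic ones 89, so 37.6% of the tested fragments overlapped an exon against 6.71% of all fragments. At least 10 counts were found for 361 and 344 fragments in WT and for 158 and 153 in salm[340]. After thinning each library to the same nuclear gene total WT had 172 and 178 such fragments and salm[340] had 154 and 153. At least 1 count was then found for 935 and 967 fragments in WT against 594 and 586 in salm[340]. The 237 are not a sample of all fragments: 64 had under 10 counts in both salm[340] libraries and were tested through their WT counts, and 2 had under 10 counts in both WT libraries.

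Fragments share counts with what they overlap. The authors counted a read pair for every feature it overlapped and for every place it mapped to, without regard to strand. A fragment inside an exon thus takes counts from its host gene, and similar fragments of a family take counts from each other. Of the 654 fragments with at least 10 counts in all, 28 had the same 4 counts as another fragment of their family. The positions are those of the reference genome, and which insertions each line carries was not analysed here.

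Summed over all fragments, the level was 3565.4 and 3602.5 CPM in WT and 4450.9 and 4291.4 CPM in salm[340]. Both salm[340] libraries were above both WT libraries. The means were 3583.9 ± 26.2 and 4371.1 ± 112.8 CPM (SD, n = 2 each), a ratio of 1.22, and an exact two-sided permutation test gave p = 0.33, the smallest that 2 against 2 libraries allow. Fragments that overlap exons summed to 1896.3 and 1961.0 CPM in WT and 1984.7 and 1984.9 CPM in salm[340]. Those in introns summed to 354.6 and 373.3 CPM in WT and 560.1 and 586.2 CPM in salm[340]. Those between genes summed to 1314.5 and 1268.2 CPM in WT and 1906.1 and 1720.2 CPM in salm[340]. Without 22 fragments that lie between the heat shock genes Hsp70Ba and Hsp70Bbb, the log2 ratio of the total was 0.09 in place of 0.29. When all counted features set the scale, mitochondrial genes included, the total was lower in salm[340], with a log2 ratio of -0.88.

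A few places held most of these counts. The 10 fragments with the most counts took between 51.8% and 54.4% of all short fragment counts in each library. The fragment blood{}5207 alone took 28.3% and 29.0% of them in WT and 23.0% and 24.5% in salm[340]. It is 37 bases of the LTR retrotransposon blood inside the coding exon of eIF4A, the translation initiation helicase (2L, 5985132 to 5985168, BDGP6).

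Between the lines, 43 of the 237 tested fragments were called (edgeR quasi-likelihood test, Benjamini-Hochberg adjusted p under 0.05 over all features), 28 higher and 15 lower in salm[340]. This is 18.1% of the tested fragments, with 11.8% higher and 6.33% lower. Of all 11986 features tested, 19.9% were called, 11.2% higher and 8.68% lower, so the share called among all tested fragments was close to that background. It was lower, at 12.7% (5.91% higher, 6.82% lower), without the fragments of the Hsp70B interval described below. For fragments that overlapped neither an exon nor another insertion it was 14.2%. With no filter on low counts, 60 of 1747 fragments and 2962 of 18539 features were called. The median log2 fold change was -0.05 over the tested fragments and -0.03 over all features tested. The number of calls changed with the libraries used, among fragments and among all features tested. Both numbers fell when either WT library was left out and rose when either salm[340] library was left out. The common dispersion, the spread between libraries that the fit assumes, was 0.0403 without WT replicate 1 and 0.0402 without WT replicate 2. It was 0.00519 without either salm[340] library, against 0.0154 with all 4 libraries. The 5 fragments called in all of these fits were pogo{}1279, NOF{}nmo-FB-NOF, roo{}38, roo{}41 and gypsy{}286. With nuclear gene sums alone as the scale, the median nuclear gene moved to -0.26 on the log2 scale from -0.04. On that scale 23 of the 237 fragments were higher and 27 lower, against 915 higher and 2418 lower of all 11986 features.

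**Figure D1:**
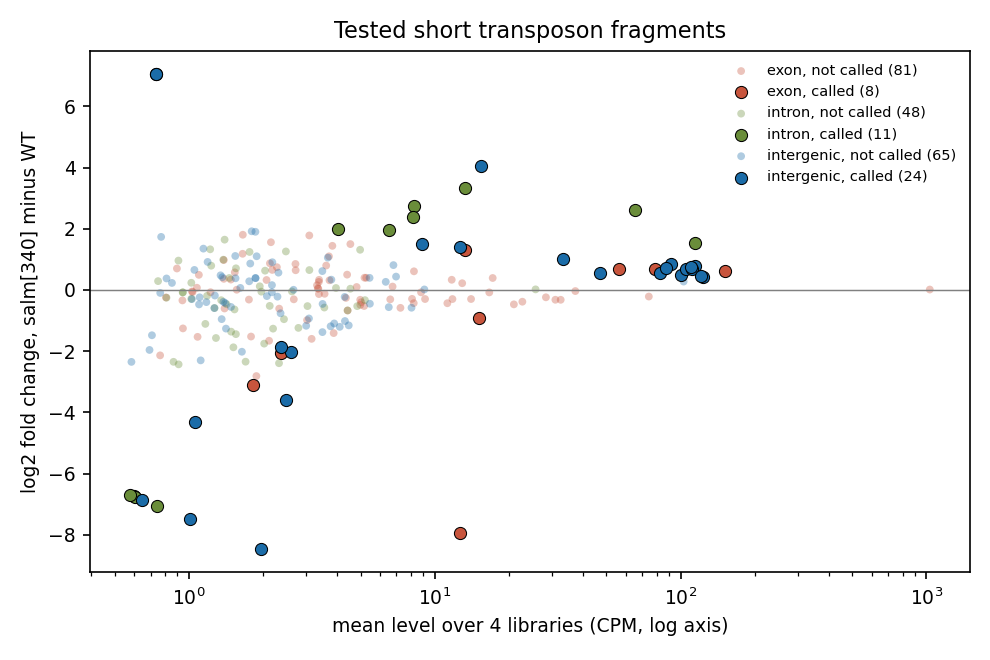
Each point is 1 of the 237 tested short fragments, with its mean level over the 4 libraries (CPM, log axis) against its log2 fold change (salm[340] minus WT); colours give the position and large outlined points the 43 called fragments. The group of called intergenic points between about 30 and 150 CPM is mostly the Hsp70B interval, and fold changes beyond 6 in size are fitted values of fragments at or near 0 counts in 1 line.

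By position, among tested fragments 8 of 89 exonic ones were called (4 higher, 4 lower), 11 of 59 intronic ones (7 higher, 4 lower) and 24 of 89 intergenic ones (17 higher, 7 lower). On 3R 18 of 39 tested fragments were called, 17 of them higher, with 15 of these in the Hsp70B interval described next, and on chromosome 4 there were 3 of 50, all lower. Outside the interval 5 of 86 exonic fragments were called (1 higher, 4 lower), 11 of 59 intronic ones, 12 of 75 intergenic ones (5 higher, 7 lower) and 3 of 22 on 3R, against 19.9% of all features. For all 43 called fragments the libraries of the lines did not overlap, which also held for 56.1% of the tested fragments and 60.5% of all features tested. Fragments that overlapped neither an exon nor another insertion gave 17 calls among 120 tested, 8 higher and 9 lower. Among longer insertions, 49 of 290 tested insertions of 1000 to 3999 bases were called, and 352 of 693 tested insertions of 4000 bases or more, 247 of them higher and 105 lower. These longer insertions overlap and share sequence with some of the short fragments, and the difference in share was not tested.

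The largest block of calls was the interval between Hsp70Ba and Hsp70Bbb (3R, 12467777 to 12502509, 34733 bases). It holds the alpha-gamma elements of the heat shock locus, which are known for heat-inducible noncoding RNA, and the Hsp70 genes that flank it code for the main stress-inducible chaperone. The interval has 22 short fragments, 15 of invader1, 4 of Dm88 (both LTR retrotransposons) and 3 of other families. The interval was singled out after the calls were seen, so its share of calls beside that of all features is not a test. Of its 17 tested fragments 15 were called, all higher, against 11.2% of all features called higher, with log2 fold changes from 0.43 to 1.02. Of these 15, 14 overlap another insertion, and their reads can map to several copies, so they do not measure 15 separate transcripts.

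In the interval, invader1{}1315 (12478331 to 12478750, 420 bases) had the largest change. Its levels were 20.1 and 24.0 CPM in WT and 50.8 and 38.6 CPM in salm[340]. Both salm[340] libraries lay above both WT libraries, and the log2 fold change was 1.02 (SE 0.179, edgeR adjusted p = 0.003806). The fragment invader1{}1345, which lies 2320 bases from Hsp70Bbb, had 84.1 and 84.2 CPM in WT and 153.7 and 135.9 CPM in salm[340]. It rose by a log2 fold change of 0.78 (edgeR adjusted p = 5.276e-04, SE 0.0978).

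Dm88{}lncRNA:alphagamma-element:CR32865[1311] (12476814 to 12477425, 612 bases) overlaps the annotated alpha-gamma lncRNA and had counts equal to 90.0% and 88.3% of that gene's in WT. It measured 117.5 and 119.8 CPM in WT and 181.2 and 185.7 CPM in salm[340]. Fragment and lncRNA rose alike, with log2 fold changes of 0.63 (SE 0.0848, edgeR adjusted p = 8.554e-04) and 0.62 (edgeR adjusted p = 9.134e-04). At the other end of the range of called fragments, Dm88{}1295 had 109.3 and 100.4 CPM in WT and 152.6 and 129.9 CPM in salm[340] (log2 fold change 0.43, edgeR adjusted p = 0.02132). The tested fragments invader1{}1321 and invader1{}1328 were not called, at log2 fold changes of 0.28 and 0.44.

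The heat shock genes beside the interval were also higher. Hsp70Ba went from 58.98 ± 2.84 CPM in WT to 122 ± 5.70 CPM in salm[340] (SD with n = 2 each, log2 fold change 1.05, edgeR adjusted p = 8.168e-05), and Hsp70Bbb from 892.5 ± 12.5 to 1476 ± 168.9 CPM (SD with n = 2 each, log2 fold change 0.73, edgeR adjusted p = 5.525e-04). All 6 Hsp70 genes were called higher, with near-identical sequences that share reads. The interval held 34.5% and 32.8% of short fragment counts in WT and 43.7% and 40.6% in salm[340]. Without its fragments 28 of 220 tested fragments were called (12.7%), 13 higher and 15 lower. None of its 15 calls was made when either WT library was left out, and 10 of them were made with nuclear gene sums alone as the scale, where Dm88{}1295 was at 0.21 (edgeR adjusted p = 0.173).

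**Figure D2:**
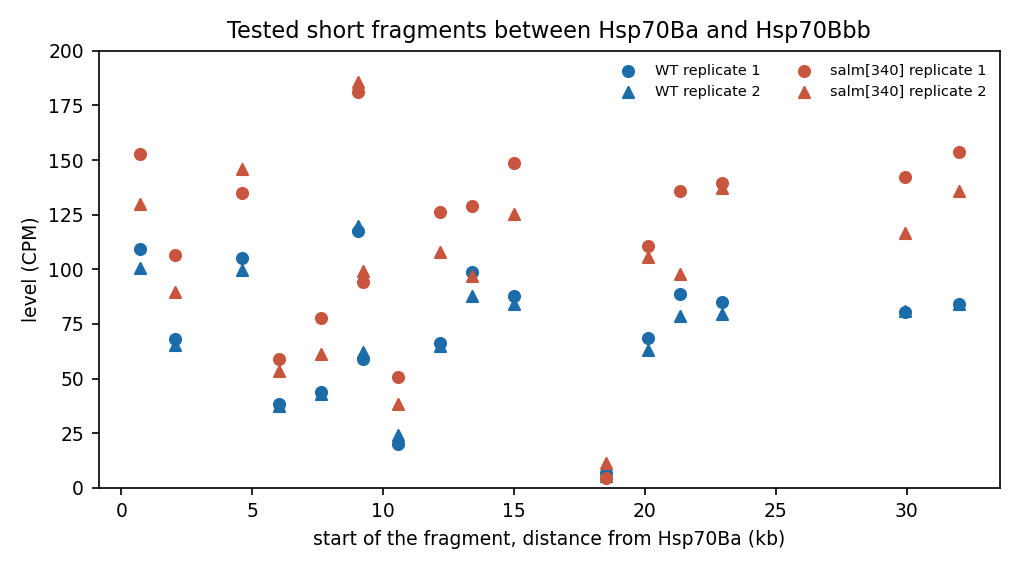
Level (CPM) of the 17 tested short fragments between Hsp70Ba and Hsp70Bbb, against the distance of the fragment's start from Hsp70Ba (kb); circles are replicate 1 and triangles replicate 2 of WT (blue) and salm[340] (red). Along the whole interval both red symbols lie above both blue ones, except at the uncalled fragments invader1{}1321 and invader1{}1328, where the lines overlap.

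Outside that interval, 13 fragments rose, 12 of them from the LTR families roo, gypsy, gypsy3 and 412 or the NOF segment of foldback elements. The largest rise at 5 CPM or more was gypsy{}286 (2L, 1301807 to 1302288, 482 bases, between genes and 5211 bases from robo3). It had counts of 49 and 10 in WT against 155 and 160 in salm[340], or 2.77 and 0.635 CPM against 28.6 and 29.5 CPM. The salm[340] libraries were far above WT and close to each other, while the WT libraries differed more. The log2 fold change was 4.05 (SE 0.467, edgeR adjusted p = 3.124e-04), and robo3, an axon guidance receptor, had 0.24 (edgeR adjusted p = 0.6817).

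NOF is the coding segment carried by some foldback elements. NOF{}nmo-FB-NOF (3L, 8022597 to 8023088, 492 bases) lies in an intron of nemo (nmo), a protein kinase. It measured 2.43 and 2.35 CPM in WT and 24.7 and 23.6 CPM in salm[340], with no overlap between the lines (log2 fold change 3.33, edgeR adjusted p = 2.025e-05, SE 0.260). The host nmo stood at 472.4 ± 5.43 CPM in WT and 486.6 ± 30.8 CPM in salm[340] (SD with n = 2 each, log2 fold change 0.04, not called). The whole FB insertion around it, of 4355 bases, had a log2 fold change of 1.13.

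A second NOF segment moved the same way. NOF{}Pka-R1-FB-NOF (3L, 20823034 to 20823992, 959 bases) is intronic in Pka-R1, the regulatory subunit gene of protein kinase A. Counts of 47 and 25 in WT stood against 81 and 74 in salm[340], with a log2 fold change of 2.74 (edgeR adjusted p = 7.348e-04, SE 0.360). Pka-R1 itself was at -0.19 and not called. These 2 were the tested fragments among 6 short NOF segments, and they can share reads.

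The LTR retrotransposon roo gave 6 rises (30%) and no fall among 20 tested fragments of 25, against 11.2% and 8.68% of all features. Fragments of the family can share reads, so the 6 are not separate measurements. The most abundant were a pair in the annotated intron of AstA-R1, an allatostatin A receptor that had itself only 1, 1, 0 and 5 counts over the 4 libraries. The fragment roo{}41 (X, 3606329 to 3607076, 748 bases) had 17.7 and 19.4 CPM in WT and 101.9 and 122.8 CPM in salm[340] (log2 fold change 2.60, edgeR adjusted p = 8.356e-07, SE 0.134). Its neighbour roo{}38 (X, 3601942 to 3602187, 246 bases) had 55.0 and 63.0 CPM in WT and 156.9 and 183.9 CPM in salm[340] (log2 fold change 1.53, edgeR adjusted p = 1.550e-05, SE 0.115). Both overlap much longer roo insertions: roo{}41 shares 733 bases with an insertion of 6521 bases at a log2 fold change of 2.22, and roo{}38 lies inside one of 4709 bases at 1.81.

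The other 4 roo fragments that rose are all 428 bases long, a length that 11 of the 25 short roo fragments share; they are named here after their values were seen. The fragment roo{}193 in the 3′ UTR of CG32512 on X had 121 and 134 counts in WT against 114 and 92 in salm[340] (log2 fold change 1.31, edgeR adjusted p = 0.006068). The intergenic roo{}867 on 2R had 66 and 86 counts against 74 and 68 (log2 fold change 1.51, edgeR adjusted p = 0.009065). In an intron of Toll (Tl), the receptor of dorsoventral and immune signalling, roo{}1429 had 46 and 43 counts against 59 and 53 (log2 fold change 1.95, edgeR adjusted p = 0.003766), while Tl was at 0.04 and not called. Raw counts were thus close in both lines for these fragments, and the scaled levels differ because the salm[340] libraries hold fewer nuclear gene counts. The intronic roo{}1410, 2 bases from an exon of CG18754, had 37 and 18 counts against 42 and 28 (log2 fold change 1.98, edgeR adjusted p = 0.02474), whereas CG18754 fell from 9.68 ± 1.13 to 2.77 ± 1.05 CPM (SD with n = 2 each, log2 fold change -1.80, edgeR adjusted p = 0.008913).

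Single fragments of other families also rose. INE-1{}5608 (X, 19371557 to 19371817, 261 bases, in an intron of kek5, a leucine-rich repeat transmembrane protein) had 3.00 and 2.22 CPM in WT and 11.8 and 15.5 CPM in salm[340] (log2 fold change 2.38, edgeR adjusted p = 0.001222, SE 0.341). It was the only INE-1 fragment of 82 tested that rose, and kek5 was at -0.05 and not called. The fragment 412{}1068 (3L, 20590119 to 20590600, 482 bases) had 7.52 and 6.35 CPM in WT and 19.2 and 17.5 CPM in salm[340] (log2 fold change 1.40, edgeR adjusted p = 0.003596, SE 0.243). It lies 6541 bases from knirps-like (knrl), a nuclear receptor gene that rose from 7.41 ± 0.240 to 28.2 ± 12.5 CPM (SD with n = 2 each, log2 fold change 1.93, edgeR adjusted p = 0.001996). The gypsy3 fragments gypsy3{}5303 and gypsy3{}4484, equal in length, had the same counts of 0 and 0 in WT and 6 and 10 in salm[340]. They are the 2 tested fragments with under 10 counts in both WT libraries, and so entered the test through the line in which they are high. Against 3 counts over the WT pair they were at least 16.4-fold higher, a bound that leaves out the counting error of the salm[340] counts. Their equal counts can be the same reads.

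**Figure D3:**
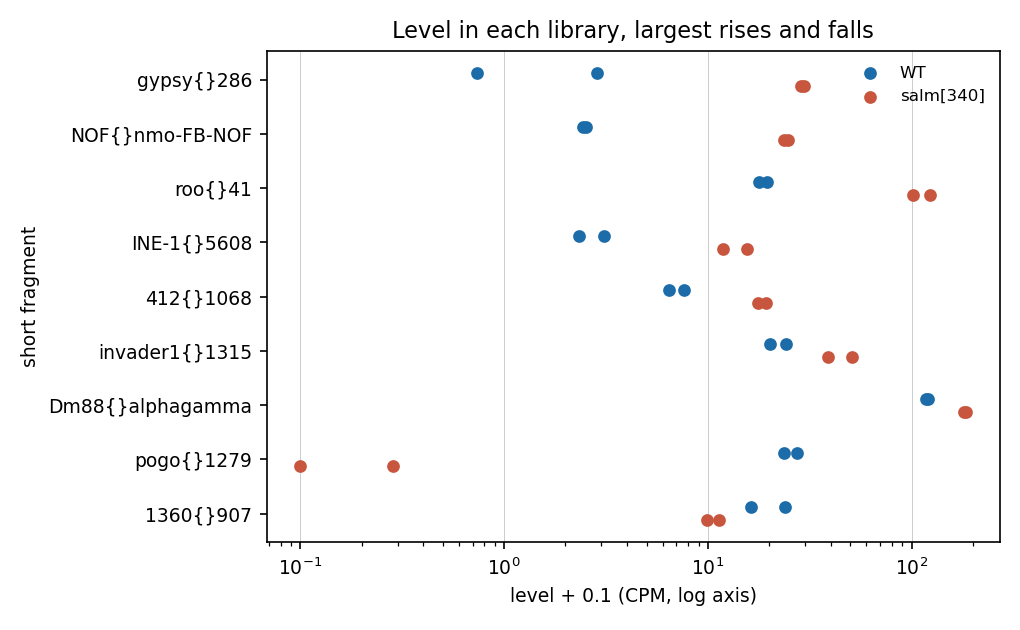
Level of each library (CPM + 0.1, log axis) for 7 short fragments that rose and 2 that fell, at most 1 per family, chosen as the largest changes at 5 CPM or more; blue is WT and red is salm[340], and Dm88{}alphagamma stands for the Dm88 fragment in the alpha-gamma lncRNA. The choice required that the libraries of the lines do not overlap, so their separation for all 9 is not a result. The fragment pogo{}1279 is at or near 0 in both salm[340] libraries.

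The largest fall with a high level was pogo{}1279 (3R, 9361869 to 9362054, 186 bases), a remnant of the DNA transposon pogo in the 3′ UTR of CG45050. It had counts of 415 and 430 in WT against 0 and 1 in salm[340], or 23.5 and 27.3 CPM against 0 and 0.185 CPM. The fragment was thus nearly without reads in salm[340] (log2 fold change -7.94, edgeR adjusted p = 5.471e-06, SE 0.522). Its host moved the other way: CG45050 had 10539 and 10059 counts in WT against 4765 and 5795 in salm[340], and rose from 617.6 ± 30.2 to 974.1 ± 134.1 CPM (SD with n = 2 each, log2 fold change 0.66, edgeR adjusted p = 0.001876). The fragment's counts equalled 3.94% and 4.28% of the host's in WT. Of the 32 short pogo fragments 24 are 186 bases long, and the other 4 that were tested, all exonic, were not called, with log2 fold changes from -1.41 to 0.65.

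The other fall at 5 CPM or more was 1360{}907 (3L, 1490339 to 1491012, 674 bases), which reaches into the 3′ UTR of CG12084. It had 16.1 and 23.7 CPM in WT and 9.78 and 11.3 CPM in salm[340] (log2 fold change -0.92, edgeR adjusted p = 0.03564, SE 0.258). CG12084 was at -0.14 (edgeR adjusted p = 0.5052).

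Of all 15 falls, 14 were of fragments with under 10 counts in both salm[340] libraries, which entered the test through the line in which they are high. The 13 falls not yet named were of fragments below 5 CPM in WT and are named here after their values were seen. Of these, 7 had no count in either salm[340] library. Against 3 counts over the salm[340] pair, INE-1{}3648 on 2R, with 61 and 70 counts in WT, was at least 14.2-fold lower. With DESeq2's Wald test in place of edgeR's test, 7 fragments in all were called lower in place of 15, and 28 higher. Over all 11986 features that test called 719 lower in place of 1040, and 1198 higher in place of 1345. The bound was at least 7.35-fold for G2{}1077 and at least 5.30-fold for INE-1{}2452 in an intron of Nipped-A, and at least 4.22-fold to 4.65-fold for gypsy10{}5203, G4{}2381, INE-1{}3368 and FB{}4833. The gene CG1418, 588 bases from INE-1{}3648, also fell, from 116.2 ± 2.23 to 39.3 ± 1.81 CPM (SD with n = 2 each, log2 fold change -1.56, edgeR adjusted p = 7.169e-06).

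Some of the low falls lay together. On 2R, FB{}5071 (4801701 to 4802544, 844 bases) contains INE-1{}4408 and gypsy10{}5203 and overlaps an exon of lncRNA:CR46477. FB{}5071 had 62 and 48 counts in WT against 3 and 1 in salm[340] (log2 fold change -3.11, edgeR adjusted p = 0.01726), and the lncRNA had 93 and 88 against 5 and 0 (log2 fold change -3.52, edgeR adjusted p = 0.01217). The 3 overlapping fragments and the lncRNA can be read from the same molecules. On chromosome 4, INE-1{}2899, INE-1{}3937 and 1360{}4770 fell by 2.04, 1.87 and 2.05 on the log2 scale, the last in an exon of anne, which was at -0.01. The intergenic invader1{}4851 on 2L had 87 and 68 counts in WT against 1 and 3 in salm[340] (log2 fold change -3.61, edgeR adjusted p = 0.004776), against the direction of the invader1 fragments at the Hsp70B interval.

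Of the 10 fragments of highest level, 8 lie in the Hsp70B interval, of which 7 rose, and the other two are roo{}38, which rose, and blood{}5207. Without correction for length, blood{}5207 in eIF4A came first, with 1008 and 1045 CPM in WT and 1022 and 1053 CPM in salm[340] (log2 fold change 0.01, edgeR adjusted p = 0.917, SE 0.0742); the sign turns with the scaling. The lines overlapped. Its counts were 28.93% to 35.01% of those of eIF4A, which was at -0.23 (edgeR adjusted p = 0.0516). The 51 bases of mdg1{}5628 in the 5′ UTR of smt3, the SUMO gene, had 79.8 ± 3.78 CPM in WT and 68.8 ± 0.283 CPM in salm[340] (SD with n = 2 each, log2 fold change -0.21, not called).

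Further fragments of high level lay in 3′ UTRs, in an antisense RNA or in an intron. The 64 bases of INE-1{}6176 in the 3′ UTR of clueless (clu), a gene of mitochondrial distribution, had 37.8 ± 2.12 and 36.9 ± 5.23 CPM (SD, n = 2 each). Tom1{}5976 in the 3′ UTR of rho-4, a rhomboid gene, had 34.4 ± 4.97 and 27.6 ± 6.14 CPM (SD, n = 2 each) and was not called (log2 fold change -0.32), while rho-4 fell (log2 fold change -0.44, edgeR adjusted p = 0.0302). McClintock{}2501 in asRNA:CR44969 stood at 24.4 ± 0.431 and 17.6 ± 1.69 CPM (SD with n = 2 each, log2 fold change -0.47, edgeR adjusted p = 0.102). G5{}1484 in the 3′ UTR of Ank, the ankyrin gene, was at 14.9 ± 0.924 and 19.6 ± 1.31 CPM (SD with n = 2 each, log2 fold change 0.39, edgeR adjusted p = 0.206). The intronic gypsy8{}5279 in nAChRalpha4 was at 25.6 ± 1.38 and 25.9 ± 0.922 CPM (SD, n = 2 each), and it lies within a Cr1a insertion of 4110 bases.

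The tested fragments ran over nearly the whole range of lengths. The shortest, 1360{}3725, has 24 bases, all within an INE-1 fragment of 768 bases, in the 3′ UTR of CG12581, and 50, 60, 25 and 12 counts over the 4 libraries (log2 fold change 0.04, edgeR adjusted p = 0.968). The longest, S2{}1603, has 989 bases and 35, 32, 3 and 6 counts (log2 fold change -1.26, edgeR adjusted p = 0.257).

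Exonic fragments were compared with their host genes, whose reads they share. Of the 89 tested exonic fragments, 87 had a tested host, over 71 distinct genes. Fragment and host were called in the same direction for 4 of them and in opposite directions for 1, pogo{}1279. The fragment alone was called for 3, the host alone for 18, and neither for 61. The 4 with the same direction were FB{}5071 with lncRNA:CR46477 and 3 fragments of the alpha-gamma lncRNA, so they concern 2 host genes.

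The size of the change was only loosely shared. Within 0.5 on the log2 scale lay 48 of the 87 fragments (55.2%), and the median absolute difference was 0.45. Over these 87 fragments Pearson's r between the log2 fold changes was 0.28 and Spearman's rho 0.26; without pogo{}1279 Pearson's r was 0.51. The points share reads, libraries and some hosts, so this describes the fragments and carries no test. The median change was -0.07 for the fragments and -0.02 for their hosts.

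**Figure D4:**
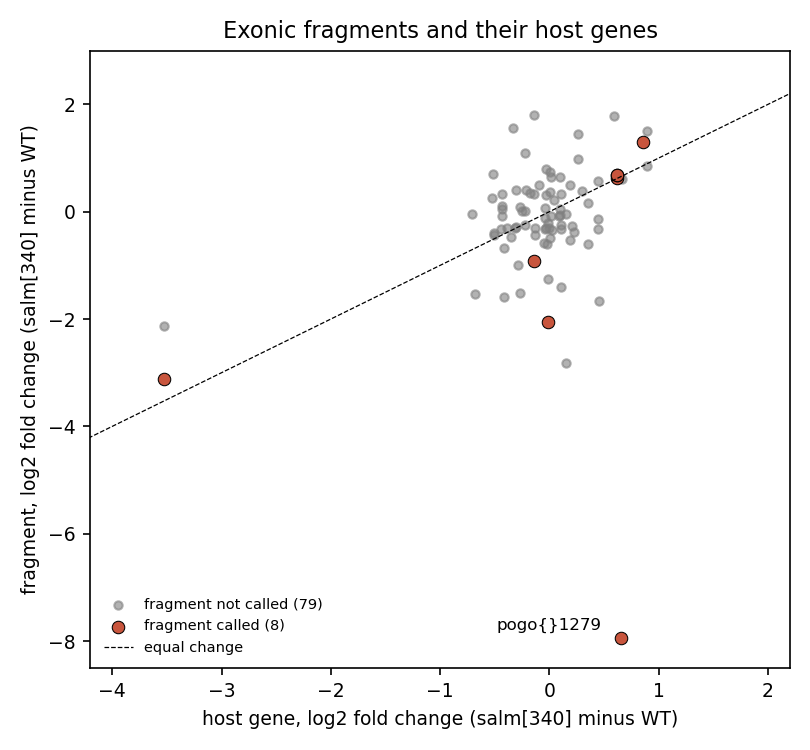
Each point is 1 of 87 tested exonic fragments, with the log2 fold change of its host gene on the x axis and its own on the y axis (both salm[340] minus WT); red points are the 8 called fragments and the dashed line marks equal change. The cloud is centred near 0 on both axes, pogo{}1279 lies far below the line at a host change of 0.66, and 2 fragments of lncRNA:CR46477 lie at the far left.

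Because reads can map to several copies, the short fragments of each family were also summed and refitted. Of 122 families 65 were tested, and 10 were called (15.4%), 7 higher (10.8%) and 3 lower (4.62%). In that fit 19.9% of all rows were called, 11.2% higher and 8.71% lower. The higher families were gypsy, gypsy3, NOF, roo, 412, invader1 and Dm88, and the lower ones micropia, pogo and INE-1. Of these, gypsy, NOF and roo stayed called when either WT library was left out. Without either salm[340] library more families were called, and more features were called in the fit of single fragments too.

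Among the higher families, roo went from 127.3 and 131.5 CPM in WT to 375.0 and 392.5 CPM in salm[340] (log2 fold change 1.57, edgeR adjusted p = 7.244e-07, SE 0.0805). Summed gypsy fragments had 3.96 and 2.29 CPM in WT and 29.9 and 30.3 CPM in salm[340] (log2 fold change 3.25, edgeR adjusted p = 4.321e-05, SE 0.286), and those of NOF 5.60 and 4.26 against 40.4 and 37.8 CPM (log2 fold change 2.98, edgeR adjusted p = 1.018e-05, SE 0.214). In each of these families both salm[340] libraries were above both WT libraries. Few counts lay behind the rise of gypsy3, with 4 and 10 in WT against 19 and 22 in salm[340] (log2 fold change 3.12, edgeR adjusted p = 0.0198, SE 0.762). Smaller rises were found for 412 at 1.20, invader1 at 0.64 and Dm88 at 0.51 on the log2 scale. The rises of invader1 and Dm88 are those of the Hsp70B interval, which held at least 98.99% of the invader1 counts and at least 97.56% of the Dm88 counts in each library. Outside it, the invader1 fragments summed to 9.17 and 7.24 CPM in WT and 6.09 and 5.53 CPM in salm[340], and those of Dm88 to 8.32 and 5.59 against 8.86 and 8.12 CPM.

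INE-1, with 2188 fragments, fell slightly. Its sum was 545.0 and 567.3 CPM in WT and 473.0 and 451.9 CPM in salm[340] (log2 fold change -0.27, edgeR adjusted p = 0.0396, SE 0.0772), a call that is lost when DESeq2 size factors set the scale. Of its 82 tested fragments 6 fell (7.32%) and 1 rose (1.22%), against 8.68% and 11.2% of all features, so single falls were no more common than in that background. Fragments outside exons gave INE-1 a log2 fold change of -0.42 (edgeR adjusted p = 0.008119).

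The fall of pogo rests on pogo{}1279. All short pogo fragments together went from 44.1 ± 1.87 to 15.3 ± 5.21 CPM (SD with n = 2 each, log2 fold change -1.52, edgeR adjusted p = 0.001004), and those outside exons were at 0.19 (edgeR adjusted p = 0.829). Without pogo{}1279 the other 31 fragments summed to 19.3 and 18.1 CPM in WT and 11.6 and 18.8 CPM in salm[340], so the lines overlapped. The 7 short micropia fragments summed to 18 and 21 counts in WT and none in salm[340], and their call was lost with a mean of at least 10 counts as the filter and with DESeq2's Wald test.

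Longer insertions of the same families could be set beside the short ones for 63 tested families, including all 10 called. In 7 of the 10 the sum of insertions of 1000 bases or more differed in the same direction. Among the uncalled families both the same and the opposite direction occurred. The share of each was not counted, so 7 of 10 is not set against a background. These log2 ratios were 3.85 for gypsy, 2.12 for roo, 1.90 for NOF, 1.19 for 412, 0.61 for Dm88, 0.60 for invader1 and -0.72 for micropia. The direction was opposite for gypsy3 at -1.82, pogo at 0.07 and INE-1 at 0.47. Reads can be counted in both length classes, and the ratios carry no test.

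**Figure D5:**
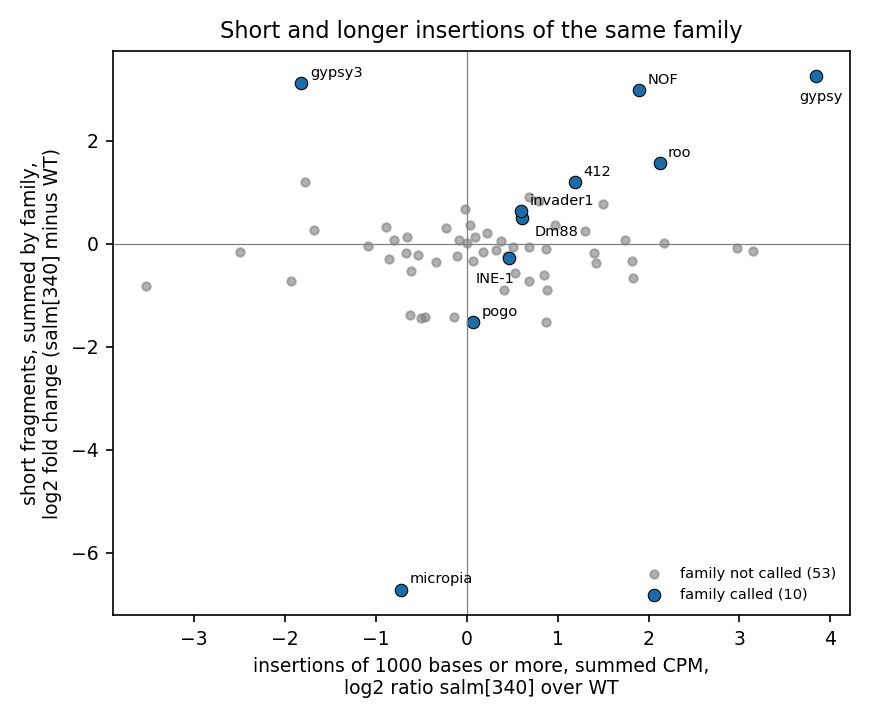
Each point is 1 of 63 families, with the log2 ratio (salm[340] over WT) of the summed CPM of its insertions of 1000 bases or more on the x axis and the log2 fold change of its summed short fragments on the y axis; blue points are the 10 called families. The families gypsy, roo, NOF, 412, invader1 and Dm88 lie in the upper right, and gypsy3 in the upper left with a longer-insertion ratio of -1.82.

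Few genes that silence transposons were called, and some of them were measured at low levels. Of 43 listed genes 37 were tested, 2 were higher and none was lower, against 11.2% and 8.68% of all features, and the median log2 fold change was -0.06. With nuclear gene sums alone as the scale 1 was higher and 4 were lower, against 915 and 2418 of all 11986 features tested. AGO1, the Argonaute of miRNAs, rose from 266.4 ± 0.969 to 336.4 ± 20.4 CPM (SD with n = 2 each, log2 fold change 0.34, edgeR adjusted p = 0.01833), though not with nuclear gene sums alone as the scale (0.12, edgeR adjusted p = 0.3587). The germ-line helicase gene vasa (vas) rose from 4.35 ± 1.67 to 11.3 ± 0.265 CPM (SD with n = 2 each, log2 fold change 1.38, edgeR adjusted p = 0.02495). Neither gene was called when either WT library was left out. AGO2 of the siRNA pathway was at 0.25 (edgeR adjusted p = 0.0663) and piwi at -0.18 (edgeR adjusted p = 0.741), with 9.19 ± 0.687 CPM in WT and 8.12 ± 2.87 CPM in salm[340] (SD, n = 2 each). AGO3 had too few counts to test, with 14, 11, 4 and 1. Some tested genes under 5 CPM in both lines had larger log2 fold changes but were not called. Among these, rhi was at 1.51 (SE 0.741) and qin at 1.25 (SE 0.512), while zuc was at -1.22 (SE 0.606) and armi at -1.02 (SE 0.921).

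Markers of other cell types were set beside these results. The summed level of 5 germ cell markers, vas included, was 38.8 and 39.5 CPM in WT and 45.0 and 34.1 CPM in salm[340], so the lines overlapped. The 8 hemocyte markers summed to 148.4 and 156.2 CPM in WT and 119.4 and 134.1 CPM in salm[340], with Pxn lower, PPO2 higher and the others not called or not tested. The 5 epidermal markers summed to 666.7 and 674.9 CPM against 955.2 and 997.9 CPM, with cora higher and crb lower. That rise is mostly cora, which went from 404.7 to 723.3 CPM, and grh, sha and ovo were not called. The 7 neural markers, at 291.6 to 333.7 CPM, and the 3 gut markers, at 26.02 to 31.96 CPM, overlapped between lines, with scrt higher and wor lower among the neural ones. The 3 fat body markers had 46.2 to 47.9 CPM in WT and 19.2 to 29.1 CPM in salm[340], with bgm lower. That sum is nearly all bgm, which went from 45.5 to 21.9 CPM. Lsp1beta was at a log2 fold change of 0.55 and not called, and Fbp1 had too few counts to test. No defining marker was at 0 in every library. Their part in the fragment levels was not tested.

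The 481 short noncoding RNA records lie in miRNA genes, and polyA libraries measure mainly the primary transcripts there. Their summed level was 208.0 and 209.9 CPM in WT and 229.0 and 283.3 CPM in salm[340]. Of 47 tested records 3 were called higher and none lower, against 11.2% and 8.68% of all features. These were 1 record of mir-276a, with 28 and 2 counts in WT against 29 and 34 in salm[340] (log2 fold change 2.72, edgeR adjusted p = 0.0494), and 2 records of mir-4956, with log2 fold changes of 1.16 and 1.29.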

How the data were processed

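PolyA RNA of sorted stage 11 myoblasts was measured in 4 libraries, 2 per line. The submitters' processing notes name STAR 2.5.4b, cutadapt 2.4 and the build BDGP6. Per the file headers, the authors counted read pairs with featureCounts 2.0.1 on annotation BDGP6.32 (Ensembl release 104), and the deposited values are raw counts. Per the file headers, pairs that mapped to several places or overlapped several features by at least 10 bases were counted for each of them, and strand was not used.

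Family names and UTRs came from Ensembl release 115 on the same assembly, which matched 5569 of the 5571 insertions by identifier, all at the same position. All 23882 features were fitted with edgeR 4.0.16 in R 4.3.3 (glmQLFit and glmQLFTest, filterByExpr, no replicate block). Library sizes were nuclear gene sums with TMM factors over nuclear genes of 1.075 and 1.084 in WT and 0.9136 and 0.9392 in salm[340]. A call has a Benjamini-Hochberg adjusted p under 0.05, and an SE is the size of the log2 fold change over the root of F. A fold against a line at 0 uses 3 counts over the pair and covers the counting error of that line only. Both libraries of a line differed beyond counting noise (chi-square per fragment 3.24 in WT and 4.34 in salm[340]). Other scalings, filters, DESeq2 1.42.0, a replicate block and each library left out were tried.

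Fragments named were the largest changes at 5 CPM or more with separated lines and the 10 highest levels (both at most 1 per family and host), the 6 largest changes outside exons, and the shortest and longest tested. The members and lists were chosen with earlier results of these data known. The fit was also run on simulated counts, drawn with the same common dispersion for all features and without shared reads. Those counts cannot show how shared reads or unequal spread affect the calls.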

Additional observations from a re-analysis of the deposited data

How the results depend on the processing

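The 43 fragments called numbered between 35 and 60 under the other scalings, filters and tests and within 31 and 46 when the length limits or the noncoding records were changed. Of the 43, 38 were kept with nuclear gene sums alone, 42 with TMM over all features, 43 with DESeq2 size factors, 43 without a filter, 40 with a mean of at least 10 counts and 35 with DESeq2's Wald test. Alternatives on overlaps, values outside the Hsp70B interval and the pogo sum without pogo{}1279 were added after seeing the data, and the count was 28 without the Hsp70B interval and 17 for fragments overlapping neither an exon nor another insertion. Leaving out each library gave 5 to 84 called fragments, 3 to 19 called families, 4 to 60 calls outside exons against 35, 0 to 13 fragments called the same way as their host against 4, and 0 to 10 silencing genes against 2; a library left alone in its line was taken to vary as the other line does. Same-way calls with the host were 7 without a filter. Silencing genes called were 5 with nuclear gene sums alone. The summed level reversed to -0.88 on the log2 scale when all features set the scale. Detection at 1 count gave 1255 and 1247 fragments in WT and 594 and 586 in salm[340], and thinning to the shallowest nuclear gene total gave 935 and 967 in WT at 1 count and 172 and 178 at 10 counts, so a difference at 1 count was left at equal totals. Uncalled fragments near 0 changed sign: blood{}5207 was at -0.21 with nuclear gene sums, at -0.016 with TMM over all features, and from -0.017 to 0.041 with a library left out. The fragment gypsy8{}5279 was at -0.20, at -0.011, and from -0.034 to 0.077 in the same fits. The fragment 1360{}3725 was at -0.18 with nuclear gene sums and from -0.58 to 0.47 with a library left out, and INE-1{}6176 ranged from -0.19 to 0.093. The cause was not tested. Replicate numbers did not pair the libraries (correlation of same-numbered deviations 0.0272); with a replicate block 47 fragments, 12 families, 36 fragments outside exons and 5 silencing genes (4 higher, 1 lower) were called. Fragments under 10 counts in both salm[340] libraries limit what a fall can show.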
